A study of Mus musculus with 16 samples.

Results

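A set of 10 genes of smooth muscle were described in mouse ventricles, 8 that encode contractile or cytoskeletal proteins (Myh11, Tagln, Cnn1, Smtn, Mylk, Lmod1, Synpo2 and Cald1) and 2 that encode their transcriptional regulators (Myocd and Srf). They were chosen by name among the 55573 genes of the count table, leaving out actins, tropomyosins and myosin light chains, and all 10 passed the filter on low counts that left 19955 genes for testing. RNA had been sequenced from the ventricles of 16 male mice, each library from 1 heart, with 4 hearts in each of 4 groups. All mice carried Trbp-flox/flox alleles and the αMHC-MerCreMer transgene, a Cre recombinase that is driven by a cardiomyocyte promoter and enters the nucleus in the presence of tamoxifen. At 4 weeks of age the Trbp-cKO mice were injected with tamoxifen, 30 mg/kg daily over 5 days, and the controls with corn oil, so that tamoxifen, active Cre and the loss of Trbp cannot be told apart here. Both were then operated, either with transverse aortic constriction (TAC), a narrowing of the aorta that loads the left ventricle with pressure, or with a sham operation without ligation, and the hearts were taken 8 weeks later at 16 weeks of age. The groups are control sham, control TAC, Trbp-cKO sham and Trbp-cKO TAC.

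Smooth muscle contracts when myosin light chain kinase phosphorylates its myosin, while caldesmon and calponin hold the thin filament in check. Many genes of this apparatus are switched on by serum response factor (SRF), which binds a short sequence called the CArG box, together with its cofactor myocardin. In the ventricle many of these genes are read mainly in the walls of coronary vessels, but SRF, myocardin and synaptopodin-2 are also made by cardiomyocytes, and transgelin, calponin and caldesmon are also made by activated fibroblasts. The cells that each transcript came from were not measured here. In RNA from whole tissue, fewer cells of a type and less RNA per cell cannot be told apart.

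Depth ranged from 45166994 to 68274222 counts per heart. Tarbp2, the gene for Trbp, was at 30.6 to 33.3 CPM in control sham, 21.1 to 31.1 in control TAC, 8.39 to 11.4 in Trbp-cKO sham and 7.14 to 9.74 in Trbp-cKO TAC hearts, lower in every Trbp-cKO than in every control heart. CPM are counts relative to the size of each library, after adjustment by the TMM method of edgeR. Control TAC hearts 1 and 2 and Trbp-cKO TAC heart 4 stood apart. Their 8 cardiomyocyte markers summed to 25112, 20091 and 28094 CPM, against 41517 to 56695 in the other 13 hearts, and mitochondrial transcripts took 38.2% and 38.8% of the counts of control TAC hearts 1 and 2, against 18.2% to 26.3% in the other 14. No cardiomyocyte marker was at 0. The main results that rest on these hearts are also given without them, an alternative chosen after the data had been seen. A score of circadian clock genes (mean z of the genes that rise with Bmal1 minus that of those that rise with Dbp) also differed between the sham groups, at 1.07 to 2.62 in control and -2.003 to -1.85 in Trbp-cKO hearts. It was -0.30 to -0.11 in control TAC and -0.85 to 1.75 in Trbp-cKO TAC hearts, so that sham and TAC did not overlap in either genotype. Fits that include this score therefore cannot tell it apart from surgery, nor from the deletion in sham hearts. All smooth muscle markers outside the 10 genes (Acta2, Actg2, Myl9, Tpm2 and Kcnmb1) were detected in each group.

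Per kilobase of exon, smoothelin and SRF transcripts were the most abundant of the 10 in every sham heart. In control sham hearts the level of Smtn was 43.1 ± 1.94 CPM per kb (SD, n = 4), followed by Srf at 29.5 ± 3.14, Tagln at 10.6 ± 1.07, Synpo2 at 7.34 ± 0.746, Cald1 at 5.08 ± 0.284, Myh11 at 4.30 ± 0.585, Myocd at 3.56 ± 0.429, Mylk at 2.78 ± 0.373, Lmod1 at 0.792 ± 0.0888 and Cnn1 at 0.474 ± 0.0832. Only Myh11 and Myocd overlapped with their neighbour in this order. In Trbp-cKO TAC hearts Srf stood at 31.1 ± 11.03 CPM per kb and Smtn at 27.2 ± 1.34, and the hearts overlapped between these 2 genes. Tagln, next in order in both TAC groups, overlapped with Srf in control TAC hearts and with Smtn in Trbp-cKO TAC hearts. Cnn1 was at 1.39 ± 0.525 and Lmod1 at 0.721 ± 0.230 CPM per kb, again with overlap. The least abundant gene by counts, Cnn1, had between 62 and 401 counts per heart, so that its values carry more counting error than those of Smtn, with 5614 to 13814.

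**Figure D1:**
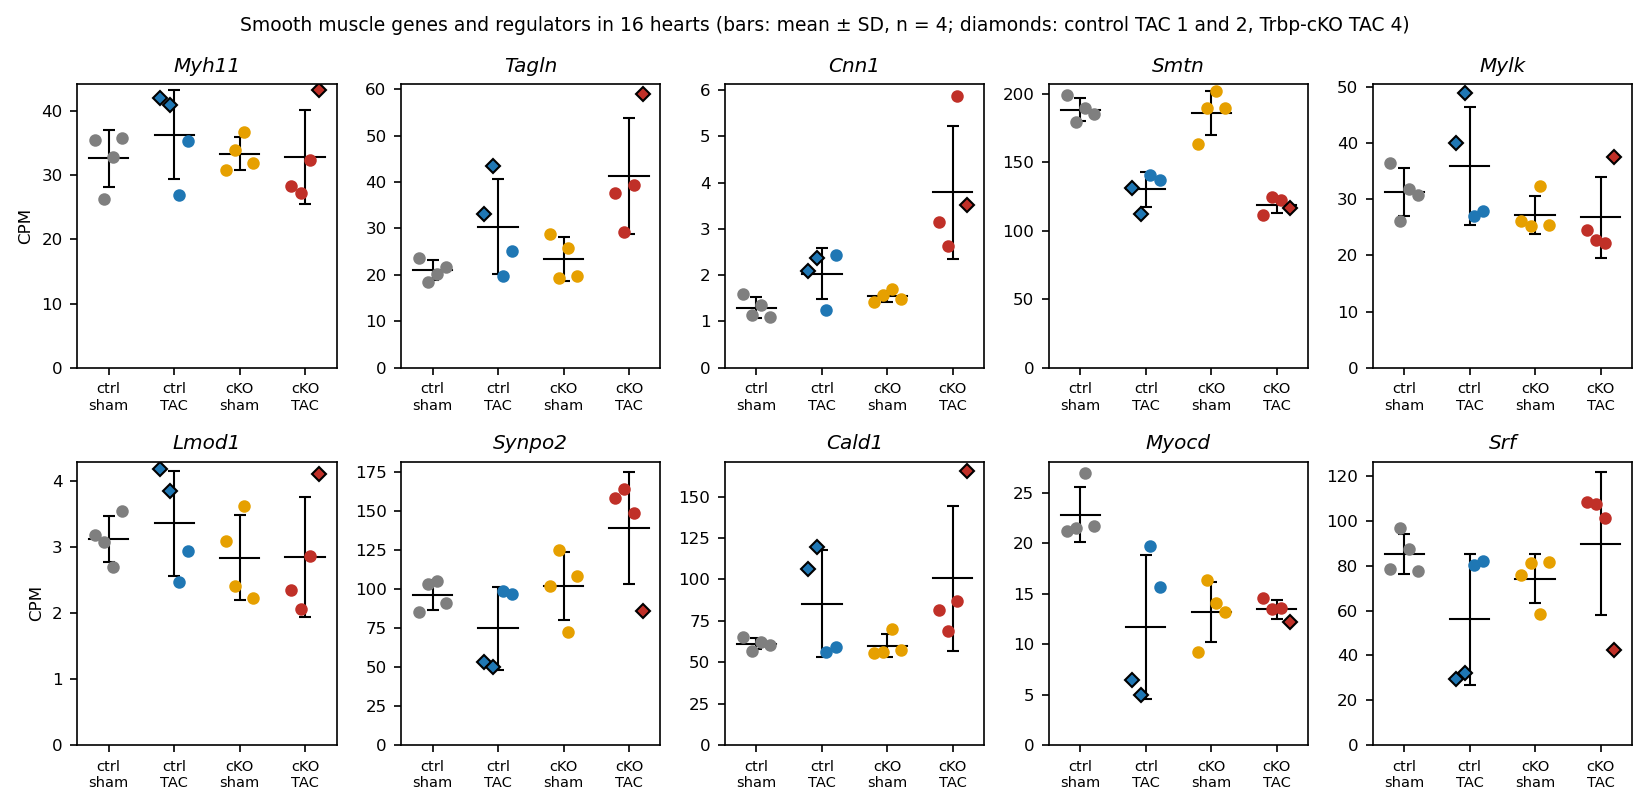
Expression of the 10 genes in each heart (y axis, CPM) for the 4 groups (x axis). Each point is 1 heart, the black line and bar give the mean ± SD of 4 hearts, and diamonds mark control TAC hearts 1 and 2 and Trbp-cKO TAC heart 4. Smtn lies lower in both TAC groups, Cnn1 is highest in Trbp-cKO TAC hearts, and the diamonds lie at the bottom of their groups for Srf and at the top for Cald1.

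Differences between groups were tested for all 19955 genes in 1 edgeR quasi-likelihood fit, and a gene was called where its adjusted p did not exceed 0.05 and its log2 fold change reached 0.8 in either direction. The 4 pairwise comparisons share groups of hearts, so each is given by its own values. After TAC in control hearts 0 of the 10 genes were called, where 3.75% of all genes were. Of the 10, 4 had an unadjusted p under 0.05 (26.6% of all genes), and DESeq2 called 1, Myocd. After the deletion in sham hearts 0 were called (0.967% of all genes), with 1 under an unadjusted p of 0.05 (13.7% of all genes) and 0 called by DESeq2 or edgeR's exact test. Between Trbp-cKO TAC and control TAC hearts 2 were called, Cnn1 and Synpo2, both higher in Trbp-cKO (2.46% of all genes in either direction). There 2 of the 10 had an unadjusted p under 0.05 (21.4% of all genes). After TAC in Trbp-cKO hearts 2 were called, Cnn1 and Tagln, both higher after TAC (5.57% of all genes), with 4 under an unadjusted p of 0.05 (23% of all genes). For the interaction, the difference between the effects of the deletion in TAC and in sham hearts, 0 were called (0.872% of all genes), with 2 under an unadjusted p of 0.05 (15.4% of all genes) and 0 called by DESeq2.

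The median log2 fold change of the 10 genes was 0.13 in control TAC against control sham hearts, -0.02 between the sham groups, 0.22 between the TAC groups and 0.15 after TAC in Trbp-cKO hearts, beside medians over all genes of 0.02, 0.01, -0.01 and -0.00. The single genes ranged from -0.97 to 0.65 in the first of these comparisons, from -0.79 to 0.26 in the second, from -0.43 to 0.90 in the third and from -0.65 to 1.29 in the last. Standard errors lay between 0.10 and 0.33, the smallest for Smtn and the largest for Srf and Myocd.

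**Figure D2:**
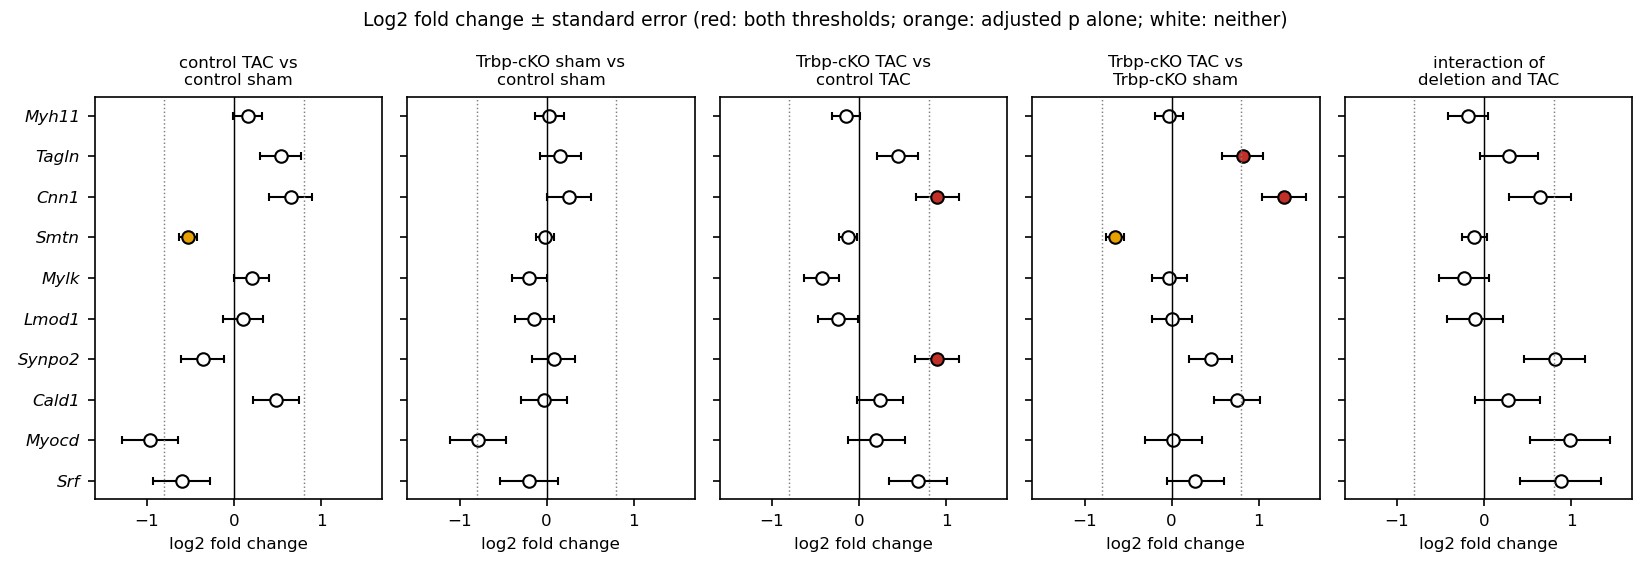
Log2 fold changes of the 10 genes (x axis) with standard errors (bars) in the 4 pairwise comparisons and the interaction. Red points passed both thresholds, orange points the adjusted p alone, white points neither, and dotted lines mark a log2 fold change of 0.8 in either direction. Cnn1 is red in both comparisons of Trbp-cKO TAC hearts, at 0.90 and 1.29, and Smtn is orange in both comparisons of TAC with sham, at -0.53 and -0.65.

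Smtn (ENSMUSG00000020439, chr11:3517523-3540612 of GRCm38) encodes smoothelin, an actin-binding protein of contractile smooth muscle. Its CPM was 200, 179, 190 and 186 in control sham hearts 1 to 4 and 131, 112, 141 and 137 in control TAC hearts. The Trbp-cKO sham hearts had 164, 190, 202 and 190 CPM, and the Trbp-cKO TAC hearts 112, 125, 123 and 117. All 8 TAC hearts lay below all 8 sham hearts, while the control and Trbp-cKO hearts overlapped within each surgery. The log2 fold change after TAC was -0.53 (SE 0.10, adjusted p = 0.0086) in control and -0.65 (SE 0.10, adjusted p = 0.000834) in Trbp-cKO hearts, so that Smtn passed the adjusted p in both (with 2.2% and 3.92% of all genes on the lower side) and missed the threshold on the fold in both. The exact permutation test of the CPM gave p = 0.0286 in both, two-sided, which is the smallest p that 4 against 4 hearts can give. The interaction was -0.11 (SE 0.14, adjusted p = 0.745), with an interval of 2 SE from -0.40 to 0.17. Without control TAC hearts 1 and 2 the difference in controls was -0.44 (adjusted p = 0.0756), and without Trbp-cKO TAC heart 4 as well it was -0.44 (adjusted p = 0.0247). With the clock score in the fit the adjusted p was 0.152 in control and 0.114 in Trbp-cKO hearts, at log2 fold changes of -0.54 and -0.64. As the score did not overlap between sham and TAC hearts, that fit cannot separate it from surgery. Cardiomyocyte markers lay on the same side: 0 of the 8 were called after TAC in either genotype (3.75% of all genes in control and 5.57% in Trbp-cKO hearts). All 8 lay below 0 after TAC in controls (median -0.59, 4 with an unadjusted p under 0.05, beside 26.6% of all genes). In Trbp-cKO hearts their median was -0.38, with 2 above 0. Their sum was 52166 to 56695 CPM in control sham, 20091 to 49095 in control TAC, 41517 to 54197 in Trbp-cKO sham and 28094 to 48266 in Trbp-cKO TAC hearts, and their part in the values of Smtn was not tested. Smtn shares exon sequence with Gm11946 and Gm11947 on the opposite strand, and as no source states whether the counting used strand, reads from these genes may be among its counts.

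Cnn1 (ENSMUSG00000001349, chr9:22099216-22109630) encodes calponin 1, an actin-binding inhibitor of the myosin ATPase. It was at 1.60, 1.15, 1.35 and 1.09 CPM in control sham hearts, at 2.09, 2.37, 1.24 and 2.44 in control TAC hearts and at 1.43, 1.58, 1.698 and 1.48 in Trbp-cKO sham hearts. In Trbp-cKO TAC hearts it was at 3.15, 2.63, 5.88 and 3.51 CPM, above every heart of the other 3 groups. Cnn1 rose by 1.29 after TAC in Trbp-cKO hearts on the log2 scale (SE 0.25, adjusted p = 0.00365), a 2.45-fold change, and was 1.87-fold higher in Trbp-cKO TAC than in control TAC hearts (log2 fold change 0.90, SE 0.25, adjusted p = 0.0453). It was the only 1 of the 10 genes without overlap between the TAC groups (10% of all genes), and 1 of 3 without overlap between the Trbp-cKO groups (17.2% of all genes). The exact permutation p was 0.0286 in both comparisons. In control hearts TAC gave a log2 fold change of 0.65 (SE 0.25, adjusted p = 0.124), and the interaction of 0.64 (SE 0.35, adjusted p = 0.405) did not pass.

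The difference between the TAC groups lay near the threshold on p, and Cnn1 was called in 2 of the 8 fits that left out 1 heart. Without control TAC hearts 1 and 2 the log2 fold change of Cnn1 was 1.03 (adjusted p = 0.0953), and without Trbp-cKO TAC heart 4 as well it was 1.07 (adjusted p = 0.0833). Leaving out Trbp-cKO TAC heart 3, the highest of the 16, gave 0.61 (adjusted p = 0.148). The rise after TAC in Trbp-cKO hearts kept its call in all 8 fits that left out 1 heart, with log2 fold changes of 1.00 to 1.43, but not in the fit with the clock score, at 0.57 (adjusted p = 0.663). Between groups, markers of activated fibroblasts lay on the same side as Cnn1, but the order of single hearts differed. In Trbp-cKO TAC hearts 3 and 4 Cnn1 was at 5.88 and 3.51 CPM, and the 8 markers summed to 1453 and 3270 CPM. After TAC 7 of the 8 were called higher in control (3.75% of all genes in either direction) and 7 in Trbp-cKO hearts (5.57%). Between the TAC groups 5 of the 8 were called higher in Trbp-cKO (2.46%). The sum of these markers was 76.7 to 97.3 CPM in control sham, 312 to 1018 in control TAC, 123 to 179 in Trbp-cKO sham and 1156 to 3270 in Trbp-cKO TAC hearts, with none at 0 in a group. Their part in the result was not tested.

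Tagln (ENSMUSG00000032085, chr9:45929619-45936058) encodes transgelin, also called SM22, an actin-bundling protein of smooth muscle. Its CPM was 23.6, 18.6, 20.2 and 21.6 in control sham, 33.2, 43.5, 19.8 and 25.2 in control TAC and 28.8, 19.3, 25.8 and 19.8 in Trbp-cKO sham hearts. In Trbp-cKO TAC hearts it was 37.6, 29.3, 39.3 and 59.0, all above the 4 Trbp-cKO sham hearts. The highest heart of each TAC group was 1 of the hearts that stood apart, control TAC 2 and Trbp-cKO TAC 4. Tagln rose by 0.82 after TAC in Trbp-cKO hearts (SE 0.24, adjusted p = 0.0381; exact permutation p = 0.0286), just past the fold threshold, and was called in 2 of the 8 fits that left out 1 heart. Without Trbp-cKO TAC heart 4 it was at 0.60 (adjusted p = 0.12), without this heart and control TAC hearts 1 and 2 at 0.60 (adjusted p = 0.0143), and with the clock score in the fit at 0.45 (adjusted p = 0.818). The log2 fold change was 0.53 (SE 0.24, adjusted p = 0.165) after TAC in controls and 0.44 (SE 0.23, adjusted p = 0.291) between the TAC groups, and without control TAC hearts 1 and 2 these were 0.10 (adjusted p = 0.962) and 0.86 (adjusted p = 0.0617). The activated fibroblast markers listed beside Cnn1 lay on the same side as Tagln between groups too. Exons of Tagln overlap those of Pcsk7 and Gm48529 on the opposite strand.

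Synpo2 (ENSMUSG00000050315, chr3:123076519-123236149) encodes synaptopodin-2, an actin-binding protein of Z-discs and of smooth muscle dense bodies. It was at 85.1, 103, 105 and 90.7 CPM in control sham hearts and at 102, 125, 72.5 and 108 CPM in Trbp-cKO sham hearts. After TAC it was at 53.4, 49.97, 98.9 and 96.7 in control and at 158, 164, 148 and 86.0 in Trbp-cKO hearts. The 3 low TAC values belong to the 3 hearts with few cardiomyocyte transcripts, and the 2 TAC groups overlapped through Trbp-cKO TAC heart 4. Synpo2 was 1.86-fold higher in Trbp-cKO TAC than in control TAC hearts (log2 fold change 0.90, SE 0.25, adjusted p = 0.0489), while the exact permutation test gave p = 0.0857. The difference depended on those hearts: it was 0.50 (adjusted p = 0.302) without control TAC hearts 1 and 2, and 0.67 (adjusted p = 0.0385), below the fold threshold, without Trbp-cKO TAC heart 4 as well. It was called in 3 of the 8 fits that left out 1 heart. The interaction was 0.81 (SE 0.35, adjusted p = 0.281).

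Cald1 (ENSMUSG00000029761, chr6:34598500-34775473) encodes caldesmon, which blocks the binding of myosin to actin. It was at 65.1, 57.0, 62.4 and 60.3 CPM in control sham and at 55.8, 56.0, 70.3 and 57.3 in Trbp-cKO sham hearts. After TAC it was at 106, 120, 56.4 and 59.4 CPM in control hearts and at 81.5, 68.6, 87.2 and 166 in Trbp-cKO hearts. Control TAC hearts 3 and 4 lay among the sham hearts, and hearts 1 and 2 lay above them all. The log2 fold change after TAC was 0.75 in Trbp-cKO (SE 0.27, adjusted p = 0.0945) and 0.48 in control hearts (SE 0.27, adjusted p = 0.254), and neither passed. Without the 3 hearts the first was 0.40 (adjusted p = 0.0116) and the second -0.08 (adjusted p = 0.838). Between the TAC groups the difference of 0.24 was 0.79 (adjusted p = 0.119) without control TAC hearts 1 and 2 and 0.44 (adjusted p = 0.0428) without all 3.

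Myh11 (ENSMUSG00000018830, chr16:14194535-14291372), the smooth muscle myosin heavy chain, Mylk (ENSMUSG00000022836, chr16:34745210-35002420), the kinase of its light chain, and Lmod1 (ENSMUSG00000048096, chr1:135324807-135368065), leiomodin 1, which nucleates actin filaments, were called in no comparison. Myh11 lay between 26.3 and 43.3 CPM over all 16 hearts, and its log2 fold changes lay between -0.15 and 0.16 in the 4 pairwise comparisons. After TAC in Trbp-cKO hearts, for example, the change in Myh11 was -0.02 with an interval of 2 SE from -0.35 to 0.30. Mylk lay between 22.2 and 48.9 CPM, and the largest of its differences, -0.43 between the TAC groups (SE 0.20, adjusted p = 0.236), was -0.05 (adjusted p = 0.932) without control TAC hearts 1 and 2. Exons of Mylk overlap those of E130310I04Rik and Gm21691 on the opposite strand. Lmod1 lay between 2.06 and 4.18 CPM, with log2 fold changes of -0.24 to 0.10. The 3 highest of the 16 hearts were the same for Myh11, Mylk and Lmod1, and for Cald1 too: control TAC hearts 1 and 2 and Trbp-cKO TAC heart 4.

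Myocd (ENSMUSG00000020542, chr11:65176561-65269989) encodes myocardin, a coactivator of SRF in cardiac and smooth muscle. It was at 21.2, 21.5, 27.0 and 21.7 CPM in control sham hearts, at 6.40, 4.97, 19.7 and 15.6 in control TAC, at 9.25, 16.4, 14.1 and 13.1 in Trbp-cKO sham and at 14.6, 13.4, 13.6 and 12.2 in Trbp-cKO TAC hearts. Every control sham heart lay above all 12 hearts of the other groups. The log2 fold change was -0.97 (SE 0.33, adjusted p = 0.0845) after TAC in controls and -0.79 (SE 0.32, adjusted p = 0.281) after the deletion in sham hearts, and both comparisons gave an exact permutation p of 0.0286. Myocd was 1 of 2 genes without overlap in the first comparison, the other being Smtn (17.4% of all genes), and the only 1 of the 10 in the second (14.7% of all genes). TAC gave 0.02 in Trbp-cKO hearts (SE 0.32, adjusted p = 0.981), and the interaction was 0.99 (SE 0.46, unadjusted p = 0.0477, adjusted p = 0.318).

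For the sham hearts the adjusted p of Myocd varied widely between alternatives. The log2 fold change moved little, from -0.91 to -0.66 over all alternatives. The adjusted p was 0.0193 in a fit of the 2 sham groups alone, 0.000421 by edgeR's exact test, 0.012 without control TAC hearts 1 and 2 and 0.0054 without Trbp-cKO TAC heart 4 as well, with fold changes just under the threshold in all 4, and over all alternatives it ran up to 0.909, with the clock score in the fit. The difference after TAC in controls rested more on control TAC hearts 1 and 2, without which it was -0.37 (adjusted p = 0.533), and the interaction without them was 0.39 (adjusted p = 0.563). Leaving out control TAC heart 3 alone gave -1.35 (adjusted p = 0.0155) for Myocd after TAC in controls.

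Srf (ENSMUSG00000015605, chr17:46548329-46556175) encodes the transcription factor itself. Its CPM was 78.7, 97.1, 87.7 and 77.6 in control sham and 75.9, 81.2, 58.4 and 81.6 in Trbp-cKO sham hearts. After TAC it was 29.3, 32.3, 80.4 and 82.4 in control and 108, 108, 101 and 42.3 in Trbp-cKO hearts. Control TAC hearts 1 and 2 and Trbp-cKO TAC heart 4 held the 3 lowest values of the 16 hearts, and the other 3 Trbp-cKO TAC hearts held the 3 highest. No comparison passed: the log2 fold change was -0.60 (SE 0.33, adjusted p = 0.25) after TAC in controls, 0.68 (SE 0.33, adjusted p = 0.253) between the TAC groups and 0.28 (SE 0.33, adjusted p = 0.702) after TAC in Trbp-cKO hearts. Without control TAC hearts 1 and 2 the first was -0.07 (adjusted p = 0.976) and the second 0.13 (adjusted p = 0.866). After TAC in Trbp-cKO hearts the difference was 0.51 without heart 4 (adjusted p = 0.365) and also without all 3 hearts (adjusted p = 0.00772), where it passed the adjusted p but not the fold threshold.

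SRF binds CArG boxes, and the 250 bases before the annotated start were searched on both strands for CC, 6 bases of A or T, and GG. RefSeq windows on GRCm38.p6 were at hand for 7 of the 10 genes, with 8 windows in all, for Cald1, Cnn1, Lmod1, Mylk, Smtn, Srf and Synpo2, and not for Myh11, Tagln and Myocd. Only the Srf window held boxes, and it held 2, where 482 of 32851 windows in the table (1.47%) held at least 1 and 6 (0.0183%) held at least 2. The Srf window is shown for these boxes, which stand in capitals and begin 82 and 62 bases before the start, and the Synpo2 window is shown as that of a called gene in which these letters were not found. The Srf window is chr17:46556163-46556412 and the Synpo2 window chr3:123236150-123236399, both on the minus strand and written 5′ to 3′. A match is a description of the letters and not a sign of binding.
Srf: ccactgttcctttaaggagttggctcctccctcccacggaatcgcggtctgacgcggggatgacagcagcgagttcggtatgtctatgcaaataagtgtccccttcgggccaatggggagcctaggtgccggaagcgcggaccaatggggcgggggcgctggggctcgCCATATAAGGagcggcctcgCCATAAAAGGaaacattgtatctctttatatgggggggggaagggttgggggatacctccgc
Synpo2: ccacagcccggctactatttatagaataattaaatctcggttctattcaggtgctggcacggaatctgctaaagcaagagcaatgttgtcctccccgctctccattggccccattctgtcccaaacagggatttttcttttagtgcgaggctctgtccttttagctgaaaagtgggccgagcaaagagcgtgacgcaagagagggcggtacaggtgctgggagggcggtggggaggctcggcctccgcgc

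**Figure D3:**
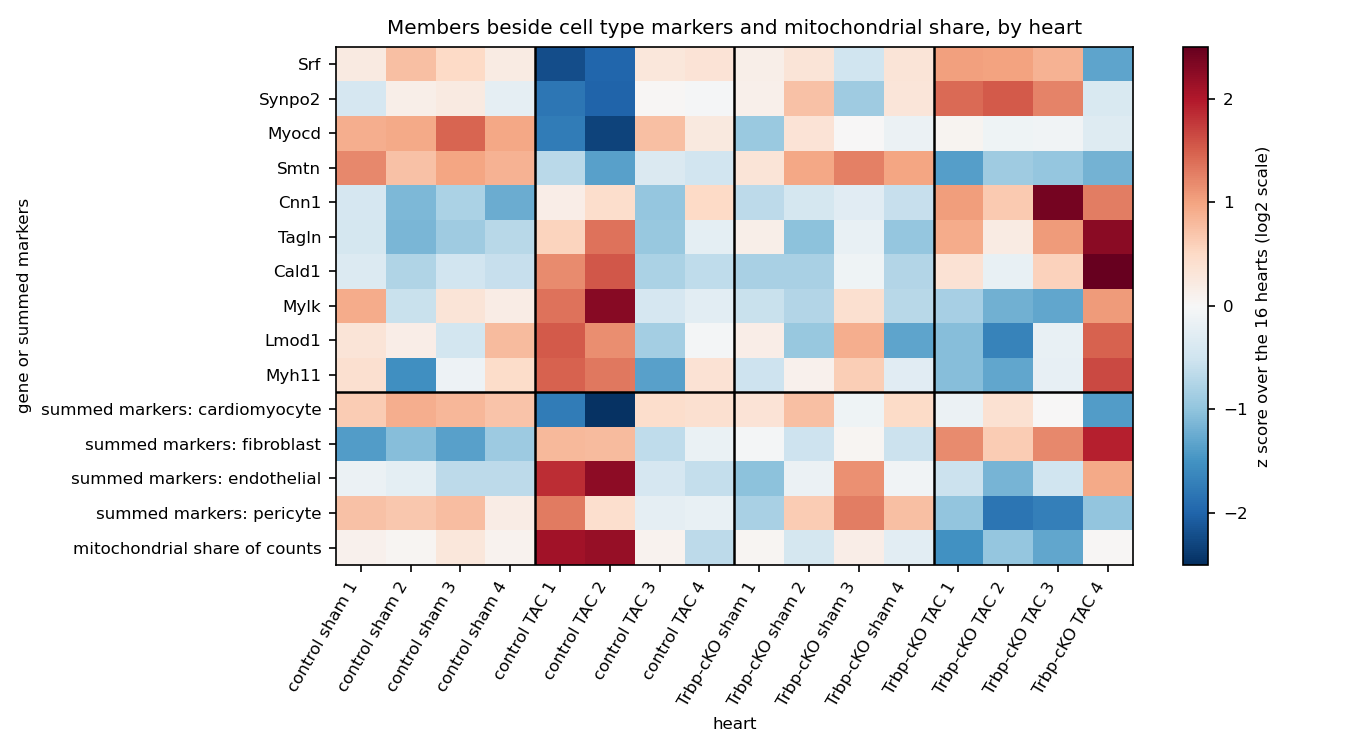
Expression of the 10 genes (upper block), summed markers of cell types and the mitochondrial share of counts (lower block) in the 16 hearts (x axis), as z scores of log2 values over the hearts, with red above and blue below the mean. Control TAC hearts 1 and 2 and Trbp-cKO TAC heart 4 are low for Srf and the summed cardiomyocyte markers and high for Cald1, Mylk, Lmod1 and Myh11.

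Among the hearts, genes of this set thus fell on different sides of the same 3 libraries. Counted from the lowest of 16 hearts, control TAC hearts 1 and 2 and Trbp-cKO TAC heart 4 ranked 1, 2 and 3 for Srf, 2, 1 and 5 for Synpo2 and 2, 1 and 4 for Myocd. They ranked 15, 14 and 16 for Myh11, 14, 15 and 16 for Cald1, 15, 16 and 14 for Mylk and 16, 14 and 15 for Lmod1. Tagln followed at 12, 15 and 16 and Cnn1 at 10, 11 and 15. Smtn stood at 6, 2 and 3, but every TAC heart lay below every sham heart for this gene, so that its ranks do not set these 3 hearts apart. The summed fibroblast markers of the same hearts were 1806, 1785 and 2652 CPM and the summed endothelial markers 1531, 1692 and 1214 CPM. In the other hearts the sums were 851 to 2054 and 702 to 1275 CPM. The part of these markers in the values of the 10 genes was not tested.

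Tested were 15 paralogs of the 10 genes, genes of like sequence with other main sites of expression. Of these, 1 was called higher after TAC in control hearts (3.75% of all genes in either direction) and 3 after TAC in Trbp-cKO hearts (5.57%). Between the sham groups 0 were called (0.967% of all genes) and between the TAC groups 0 (2.46%). An unadjusted p under 0.05 was found on the higher side for 4 and on the lower side for 3 of the 15 after TAC in controls (26.6% of all genes), for 2 between the sham groups (13.7%) and 5 between the TAC groups (21.4%), all higher, and for 8 higher and 1 lower after TAC in Trbp-cKO hearts (23%). The median of the 15 was 0.16 after TAC in controls, -0.07 and 0.48 between the sham and the TAC groups and 0.52 after TAC in Trbp-cKO hearts. The largest of the called changes was that of Synpo2l, the heart and skeletal muscle relative of Synpo2. Its CPM was 103, 119, 111 and 124 in control sham and 302, 367, 296 and 351 in control TAC hearts, and 114, 137, 106 and 108 in Trbp-cKO sham and 541, 631, 399 and 265 in Trbp-cKO TAC hearts. TAC separated both genotypes without overlap, and Synpo2l rose by 1.53 in control (SE 0.21, adjusted p = 0.00109) and by 1.98 in Trbp-cKO hearts (SE 0.21, adjusted p = 3.41e-05). Cnn2 (0.81, adjusted p = 0.00108), a calponin of non-muscle cells, and Synpo (0.81, adjusted p = 0.00162), a synaptopodin known from kidney podocytes and neurons, rose after TAC in Trbp-cKO hearts. Both lay close to the fold threshold: with 1 heart left out Cnn2 was called in 5 of 8 fits (0.74 to 0.87) and Synpo in 4 of 8 (0.743 to 0.899). Cnn2 fell short without Trbp-cKO sham heart 2 or Trbp-cKO TAC heart 3 or 4, and Synpo without Trbp-cKO sham heart 1 or 3 or Trbp-cKO TAC heart 1 or 4. The cardiac kinase Mylk3, at 412 to 519 CPM in control sham hearts and at 104, 75.5, 349 and 323 CPM in control TAC hearts, was called in no comparison.

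**Figure D4:**
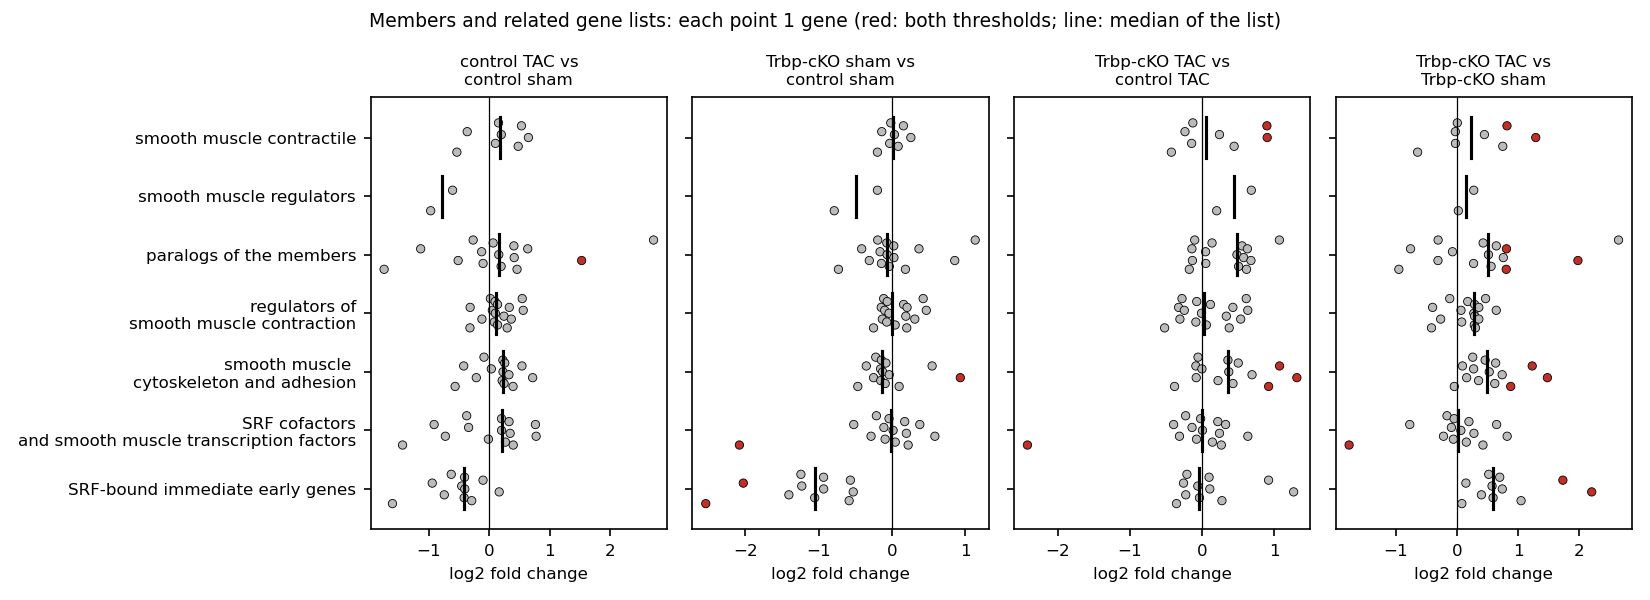
Log2 fold changes (x axis) of the 10 genes and of related gene lists (rows) in the 4 pairwise comparisons. Each point is 1 gene, red where both thresholds were passed, and the line is the median of the list, which for the contractile genes is 0.18, 0.01, 0.05 and 0.23 from left to right.

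Of 16 regulators of smooth muscle contraction, among them myosin phosphatase and cyclic GMP genes, 0 were called by edgeR in any comparison (0.872% to 5.57% of all genes). Their medians were 0.00 to 0.28 in the 4 pairwise comparisons. An unadjusted p under 0.05 was found for 3 after TAC in controls (26.6% of all genes), 3 between the sham groups (13.7%), 7 between the TAC groups (21.4%) and 7 after TAC in Trbp-cKO hearts (23%). The adjusted p alone was passed by 1 between the sham groups (1.68% of all genes) and 1 between the TAC groups (5.53%), both higher in Trbp-cKO, by 3 on the higher and 1 on the lower side after TAC in Trbp-cKO hearts (9.94%), and by 1 in the interaction (1.05%). Gucy1b1, a subunit of the nitric oxide receptor, was among them between the sham groups (0.47, adjusted p = 0.0474), after TAC in Trbp-cKO hearts (-0.42, adjusted p = 0.0263) and in the interaction (-0.72, adjusted p = 0.0427). Of 14 genes of the smooth muscle cytoskeleton, 3 were called higher in Trbp-cKO TAC than in control TAC hearts (2.46% of all genes in either direction): the intermediate filament genes Synm (1.31, adjusted p = 9.91e-05) and Des (1.07, adjusted p = 0.00868), both also read in cardiomyocytes, and Csrp2 (0.92, adjusted p = 0.00578), a LIM protein. Without control TAC hearts 1 and 2, Des was at 0.67 (adjusted p = 0.0169), below the fold threshold, while Synm (1.34) and Csrp2 (1.298) stayed called, but Csrp2 was at 0.775 and not called without control TAC heart 3. Csrp2 was also the only 1 of the 14 called in sham hearts (0.93, adjusted p = 0.0136, with 0.967% of all genes called). It was at 21.2 to 24.4 CPM in Trbp-cKO and 11.9 to 12.6 CPM in control hearts. This call was made in 7 of the 8 fits that left out 1 heart, and lost without control sham heart 3 (adjusted p = 0.0512). Without control TAC hearts 1 and 2 together it was made at 0.93 (adjusted p = 0.00121). Synm, Des and Pdlim7, a Z-disc adaptor, were called higher after TAC in Trbp-cKO hearts (5.57% of all genes), and Pdlim7 was below the fold threshold without Trbp-cKO sham heart 2 (0.786) or Trbp-cKO TAC heart 4 (0.675).

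Of 14 SRF cofactors and smooth muscle transcription factors, only Hopx was called, lower in the 3 pairwise comparisons that include Trbp-cKO hearts. Of all genes, 0.967% were called between the sham groups, 2.46% between the TAC groups and 5.57% after TAC in Trbp-cKO hearts. Hopx, a homeodomain protein that binds SRF and restrains it, was at 229 to 244 CPM in control sham and 44.7 to 72.1 CPM in Trbp-cKO sham hearts (log2 fold change -2.08, SE 0.48, adjusted p = 0.0422). It was at 31.2, 22.1, 163 and 133 CPM in control TAC and at 11.1 to 21.7 CPM in Trbp-cKO TAC hearts (-2.42, SE 0.49, adjusted p = 0.0111), and at -3.19 (adjusted p = 1.34e-05) without control TAC hearts 1 and 2. The Hopx call was made in all 8 fits that left out 1 heart between the TAC groups, in 0 of 8 between the sham groups, where the adjusted p was 0.0775 to 0.117, and in 2 of 8 after TAC in Trbp-cKO hearts. Of all genes, 193 were called between the sham groups in the main fit and 74 to 130 in those 8 fits. Without control TAC hearts 1 and 2 together Hopx was called at -2.09 between the sham groups (adjusted p = 0.000257). After TAC in Trbp-cKO hearts Hopx was called at -1.775 in that fit (adjusted p = 5.29e-05). Of 11 immediate early genes bound by SRF, 2 were called lower in Trbp-cKO sham than in control sham hearts (0.967% of all genes in either direction), Egr2 (-2.54, adjusted p = 0.0392) and Egr3 (-2.03, adjusted p = 0.0362), and all 11 lay below 0 there, with a median of -1.06. Egr2 was at 5.35, 38.2, 8.35 and 4.09 CPM in control sham hearts, with heart 2 far above the others, and at 1.74 to 3.55 CPM in Trbp-cKO sham hearts. Without control sham heart 2 neither Egr2 (-1.304, adjusted p = 0.0755) nor Egr3 (-1.38, adjusted p = 0.0949) was called, 9 of the 11 lay below 0 and their median was -0.40. With 1 heart of either sham group left out Egr2 was called in 2 of 8 fits and Egr3 in 1 of 8. After TAC in Trbp-cKO hearts Egr2 (2.21, adjusted p = 0.0236) and Ccn1 (1.74, adjusted p = 0.0133) were called higher (5.57% of all genes), and Egr2 was the only 1 of the 11 called in the interaction (3.81, adjusted p = 0.0356; 0.872% of all genes). With 1 heart left out, that call of Egr2 was made in 6 of 16 fits and its call after TAC in Trbp-cKO hearts in 4 of 8, and the call of Ccn1 was lost without Trbp-cKO sham heart 4 (1.58, adjusted p = 0.0505). The interaction of Egr2 was smaller without control sham heart 2, at 2.56 (adjusted p = 0.0201), and was still called. Of the 5 other smooth muscle markers, Acta2, Myl9 and Tpm2 were called higher in Trbp-cKO hearts after either surgery. In either direction, 0.967% of all genes were called in sham and 2.46% in TAC hearts. The 3 markers were higher by 1.18, 1.61 and 0.96 in sham and by 2.35, 2.71 and 1.40 in TAC hearts. Actg2 and Kcnmb1 were not called. Between the TAC groups these 2 had log2 fold changes below 0, Actg2 of -0.73 (unadjusted p = 0.0424, adjusted p = 0.212) and Kcnmb1 of -0.33 (adjusted p = 0.346), at means of 0.927 and 2.27 CPM in control TAC and 0.555 and 1.81 CPM in Trbp-cKO TAC hearts. Acta2 was also called lower after TAC in controls (-1.27, adjusted p = 0.0164, with 3.75% of all genes called). It was at 149 to 292 CPM in control sham and 81.4 to 109.5 CPM in control TAC hearts, so that the difference between the TAC groups holds this fall as well. That call was made in 6 of 8 fits that left out 1 heart, not without control sham heart 3 or control TAC heart 2, and not without control TAC hearts 1 and 2 together (-1.39, adjusted p = 0.106). Myl9 (1.198, adjusted p = 0.00768) and Tpm2 (1.02, adjusted p = 0.00318) were called higher after TAC in Trbp-cKO hearts (5.57% of all genes), and also in all 8 such fits. Acta2, Myl9 and Tpm2 kept their calls between the TAC groups in the 8 fits that left out 1 heart, but between the sham groups Acta2 was called in 0, Tpm2 in 1 and Myl9 in all 8. Without control TAC hearts 1 and 2 together all 3 were called between the sham groups. There Acta2 was at 1.17 (adjusted p = 0.0359), Myl9 at 1.61 (adjusted p = 0.00254) and Tpm2 at 0.96 (adjusted p = 0.00632).

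The genes whose pattern over the 16 hearts was most like those of the 10 were sought among 12951 genes by Pearson's r of log2 CPM. The points share library depth and composition, and r is given as a description. The 8 contractile genes did not share 1 pattern, and their mean averages over opposed genes. On deviations from the group means Synpo2 had r = -0.935 with Mylk and -0.942 with Cald1, while Mylk had r = 0.939 with Cald1. With the mean of the 8 contractile genes, Icam1, an endothelial adhesion molecule, had r = 0.956, and 0.907 over the 13 hearts without the 3 that stood apart; its r on deviations from the group means was 0.946. Chic2 (0.915) and Ldb2 (0.887) came next, and fell to 0.753 and 0.634 over 13 hearts. For Srf the highest were Klhdc2 (0.989), Nomo1 (0.986) and D17Wsu92e (0.985) on levels, and Cavin4 and Srl (both 0.991), 2 genes of the cardiomyocyte membrane system, on deviations from the group means. These 2 stood at 0.975 over the 13 hearts. For Myocd they were 2310015A10Rik (0.948), Bahd1 (0.939) and Zxdc (0.936) on levels and Snx29 (0.963) on deviations.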

How the data were processed

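Ventricular RNA from 16 hearts was sequenced for the authors by GENEWIZ as paired reads of 150 bases. Per the labels and methods, the authors used cutadapt 2.3 for trimming, HISAT2 2.1.0 for alignment to GRCm38 and StringTie 1.3.4 for abundance, and they deposited counts per gene and heart that are derived from transcript coverage, length and an assumed read length, without normalization. The assumed length and the annotation release were not given in the sources used here, so halved counts were tried. Here the deposited counts were analysed with edgeR 4.0.16 in R 4.3.3: default filter on low counts, TMM, 1 robust quasi-likelihood model of all 16 hearts with group coefficients, and Benjamini-Hochberg adjustment over the 19955 genes tested. The thresholds of 0.8 and 0.05 are those of the study's methods. The CPM of each member were compared by exact permutation over 70 assignments, two-sided. Symbols, positions and exon lengths came from GENCODE M21. The lists were written by hand, and the members and lists were chosen with earlier results of these data known. The rule for named genes took all 10 genes, the called genes of each list with its 3 most abundant members, and the genes of most similar pattern. Of these, markers of cell types other than smooth muscle and clock genes are given only as counts, sums or a score, and abundant members that were not called, except Mylk3, and some genes of similar pattern were left out. Gucy1b1, Actg2 and Kcnmb1 were outside the rule and were named after their values were seen. Alternatives were library-size scaling, DESeq2 1.42.0, other thresholds and filters, a 2-group fit, the exact test of edgeR, halved counts, a replicate block, a clock score and each heart left out. Each library is a separate heart, and depth was 45166994 to 68274222 counts per heart.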

Additional observations from a re-analysis of the deposited data

Results flagged for a closer look

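Of the 40 sets of 4 hearts, 10 genes in 4 groups, 5 held a heart far from the other 3, with a gap to the nearest heart that was past Dixon's critical value as a share of the whole range. Chance gives about 1 such set in 20. Myocd was at 26.96 CPM in control sham heart 3, the highest of its group (gap 0.918 of the range). Mylk was at 32.29 CPM and Cald1 at 70.25 CPM in Trbp-cKO sham heart 3, both the highest of their group (0.858 and 0.902). In Trbp-cKO TAC heart 4, 1 of the hearts that stood apart by cardiomyocyte markers, Mylk was the highest of its group at 37.52 CPM (0.844) and Srf the lowest at 42.25 CPM (0.893). The cause was not tested.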

How the results depend on the processing

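The alternatives left the counts of called genes at 0 for the deletion in sham hearts and for the interaction. After TAC in controls the count was 1 by the adjusted p alone (Smtn), 1 with DESeq2 (Myocd) and 0 to 2 with 1 heart left out: Cnn1 and Myocd without control TAC replicate 3, Myocd without control TAC replicate 4. Between the TAC groups the count of 2 went to 0 with a fold threshold of 1, the fit of 2 groups, edgeR's exact test, no filter on low counts, the clock score, and without the 2 or 3 hearts that stood apart, and ran from 0 to 2 with 1 heart left out. It was 0 without control TAC replicate 1 or 2 or Trbp-cKO TAC replicate 1 or 3. After TAC in Trbp-cKO hearts the count of 2 was 3 by the adjusted p alone (Smtn added), 1 (Cnn1) with a fold threshold of 1 and without the 3 hearts, 0 with the clock score, and 1 to 2 with 1 heart left out. It was 1 without Trbp-cKO sham replicate 2, 3 or 4 or Trbp-cKO TAC replicate 1, 3 or 4. The cause was not tested.

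Replicate numbers are shared by the groups but did not pair the hearts: of 24 same-numbered pairs 7 had a correlation of deviations over 0.1 (median -0.08), and 2 of 16 hearts were nearest to their own number. With the replicate block, 0 genes were called between the TAC groups and 1 (Cnn1) after TAC in Trbp-cKO hearts, and Lmod1 there went to -0.011.

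Reversed log2 fold changes belonged to genes that were not called in the same comparison of the main fit. With library-size scaling, which moved the median of all genes by 0.139 between the TAC groups, Smtn was at 0.083 and Cald1 at 0.068 between the sham groups, Smtn at 0.006 between the TAC groups, and Myh11 and Mylk at 0.022 and 0.019 after TAC in Trbp-cKO hearts. Without a filter Lmod1 was at -0.009 there. With the clock score, Mylk (0.011), Lmod1 (0.54), Synpo2 (-0.30) and Cald1 (0.79) reversed between the sham groups, Lmod1 (-0.46) after TAC in Trbp-cKO hearts, and Tagln (-0.37), Cnn1 (-0.63) and Cald1 (-0.72) in the interaction. Without control TAC hearts 1 and 2, and the same without Trbp-cKO TAC heart 4 as well, Myh11 (-0.066), Mylk (-0.19), Lmod1 (-0.21), Synpo2 (0.025) and Cald1 (-0.08) reversed after TAC in controls. Without the first 2 hearts Myh11 (0.062), Lmod1 (0.060) and Myocd (-0.41) reversed between the TAC groups and Myh11 (0.036), Mylk (0.155) and Lmod1 (0.21) in the interaction. Without all 3, Myocd was at -0.36 between the TAC groups and Lmod1 at -0.23 after TAC in Trbp-cKO hearts. With 1 heart left out, values of the following genes crossed 0 in some fits. Between the sham groups the ranges were -0.061 to 0.075 for Myh11, -0.059 to 0.031 for Smtn and -0.03 to 0.217 for Synpo2. After TAC in controls Lmod1 ran from -0.021 to 0.22. Between the TAC groups Myocd ran from -0.061 to 0.568 and Cald1 from -0.108 to 0.439. After TAC in Trbp-cKO hearts the ranges were -0.117 to 0.142 for Myocd, -0.227 to 0.147 for Lmod1, -0.187 to 0.054 for Myh11 and -0.236 to 0.063 for Mylk. In the interaction they were -0.329 to 0.044 for Lmod1 and -0.076 to 0.478 for Cald1. Of 1110 log2 fold changes under alternatives, 1009 kept their direction and side of the thresholds.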
